A study of Homo sapiens with 6 samples.

Results

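The genes described here are 37 components and targets of the Wnt/beta-catenin pathway, followed by symbol through all 6 RNA libraries of the series. Each of the 37 symbols matched 1 of the 60664 Ensembl identifiers in the count table, by its current name. They comprised 10 feedback genes, 9 genes of intestinal stem and crypt cells, 6 other reported targets, 4 TCF/LEF transcription factors, and 8 receptors and members of the destruction complex. The cells are labelled HCT8, the name of an established human colorectal cancer line, with a genotype label of WT in the controls. In 3 libraries the cells had received a control plasmid, and in the other 3 a plasmid for overexpression of GPT1 (gene GPT), the cytosolic alanine aminotransferase. The labels name neither the promoter of the plasmid nor the time after transfection, nor do they say whether the libraries of a group were separate cultures, so p-values measure the spread between these libraries. The series asked which signalling pathway GPT1 regulates.

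In the Wnt pathway, a secreted Wnt ligand binds a Frizzled receptor and an LRP5 or LRP6 co-receptor at the cell surface. Without ligand, the destruction complex of APC, AXIN1 and GSK3B marks beta-catenin for degradation; with ligand, beta-catenin accumulates and acts on target genes through TCF/LEF factors. Several targets encode inhibitors of the pathway and so form negative feedback. In the intestine the pathway maintains the stem cells at the base of the crypts, and most colorectal cancers carry mutations that activate it.

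The library labels held for the transfected gene, since GPT was counted 9, 14 and 3 times in control libraries against 105529, 96886 and 106063 times in GPT1 libraries. Library totals ran from 21255655 counts (control replicate 3) to 32487217. The trend with transcript length moved with the groups, while the trend with base composition overlapped between them. Over 17436 genes, the deviation of a library from the gene mean had a Spearman correlation with transcript length of 0.29, 0.06 and 0.30 in the controls and -0.38, -0.14 and -0.24 in the GPT1 libraries, so that the groups did not overlap. With GC content the correlation was -0.03, 0.08 and -0.52 in the controls and 0.47, -0.12 and 0.27 in the GPT1 libraries, control replicate 3 being the lowest. Across the same genes, which are not independent replicates, the log2 fold change correlated at -0.33 with length and 0.31 with GC content. Values after a correction for both are given below for some genes, and genes without one may have moved too. Of the colorectal epithelial markers, CDX2 stood at 37 to 48.4 CPM (counts per 1000000 reads, scaled to the TMM-adjusted size of each library) and VIL1 at 2.96 to 12.9 CPM, and CDX1, GPA33 and KRT20 had 14, 43 and 7 counts over all 6 libraries. VIM, the vimentin gene typical of mesenchymal cells, stood at 1010 to 1040 CPM and NEFM, a neurofilament gene, at 102 to 336 CPM. NEFL, another neurofilament gene, stood at 82.7 to 157 CPM. The near absence of several colorectal markers beside abundant vimentin and neurofilament transcripts goes against the label, while CDX2, KRT8 (330 to 568 CPM) and KRT18 (157 to 279 CPM) were present. The identity of the line was not tested, and names such as stem and crypt genes below are names of lists, not of cells found here. The marker sets moved with the groups. Of all 17638 genes tested, 14.6% were lower and 10.5% higher in the GPT1 libraries (edgeR quasi-likelihood test, adjusted p below 0.05). In the colorectal set, 9 of the 10 tested genes fell, with a median log2 fold change of -1.69 over the 10. KRT19, CDH1 and VIL1 were at -2.17, -2.01 and -1.96, and CDX2 did not pass (0.12). The 13 genes together held 944 to 1060 CPM of total counts in the controls and 595 to 651 in the GPT1 libraries. KRT8 and KRT18, which fell less (-0.59 and -0.61), made up most of these sums. In the neural and kidney set 3 of 8 fell, namely NEFM, MAP2 and NEFL, at log2 fold changes of -1.49, -1.35 and -0.87. VIM, at 0.02, made up most of the sums of this set (1460 to 1600 and 1240 to 1270). In the fibroblast set 3 of 6 tested rose (52 to 56 and 65.7 to 67.8), while COL1A2 and DCN had 7 and 40 counts. Endothelial and leukocyte sets summed to at most 3.29 CPM in any library, with CD3E at 0. The part of these markers in the results below was not tested.

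Of the 37 genes, 34 passed the filter on low counts, and 17 of these were lower in the GPT1 libraries (50%), beside 14.6% of all 17638 genes tested. None was higher, beside 10.5% of all genes (edgeR quasi-likelihood test at an adjusted p of 0.05). In DESeq2 and limma voom 0 were higher, beside 1879 of 17637 and 1889 of 17638 of all genes. Without adjustment 0 were higher at a p under 0.05 in edgeR, a cut at which the share of all genes was not counted. The median log2 fold change was -0.44 over the 34 genes and -0.02 over all genes. In 22 of the 34 all GPT1 libraries lay below all control libraries, which was the case for 22.2% of all genes. Of the 34 genes 4 fell at least 2-fold, beside 3.37% of all genes. In bulk RNA, fewer cells that express a gene and less RNA per cell cannot be told apart. The calls numbered 10 without GPT1 replicate 1 and 10 without GPT1 replicate 3, 12 without control replicate 1 and 19 without control replicate 3, and none was higher in these fits. Of all genes, 941 of 18025, 830 of 18081, 1574 of 18070 and 2185 of 18050 were lower in those fits, in the same order. Correcting each library for trends in transcript length and GC content also gave 17 lower and 0 higher, but EPHB2 and APC lost their call (adjusted p = 0.062 and 0.0558, edgeR) and SP5 and ASCL2 gained one (0.0201 and 0.0372). The median of the 34 genes was then -0.31, beside 0.03 for all genes, in a table whose calls went from 2572 lower and 1858 higher to 2611 lower and 3506 higher.

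**Figure D1:**
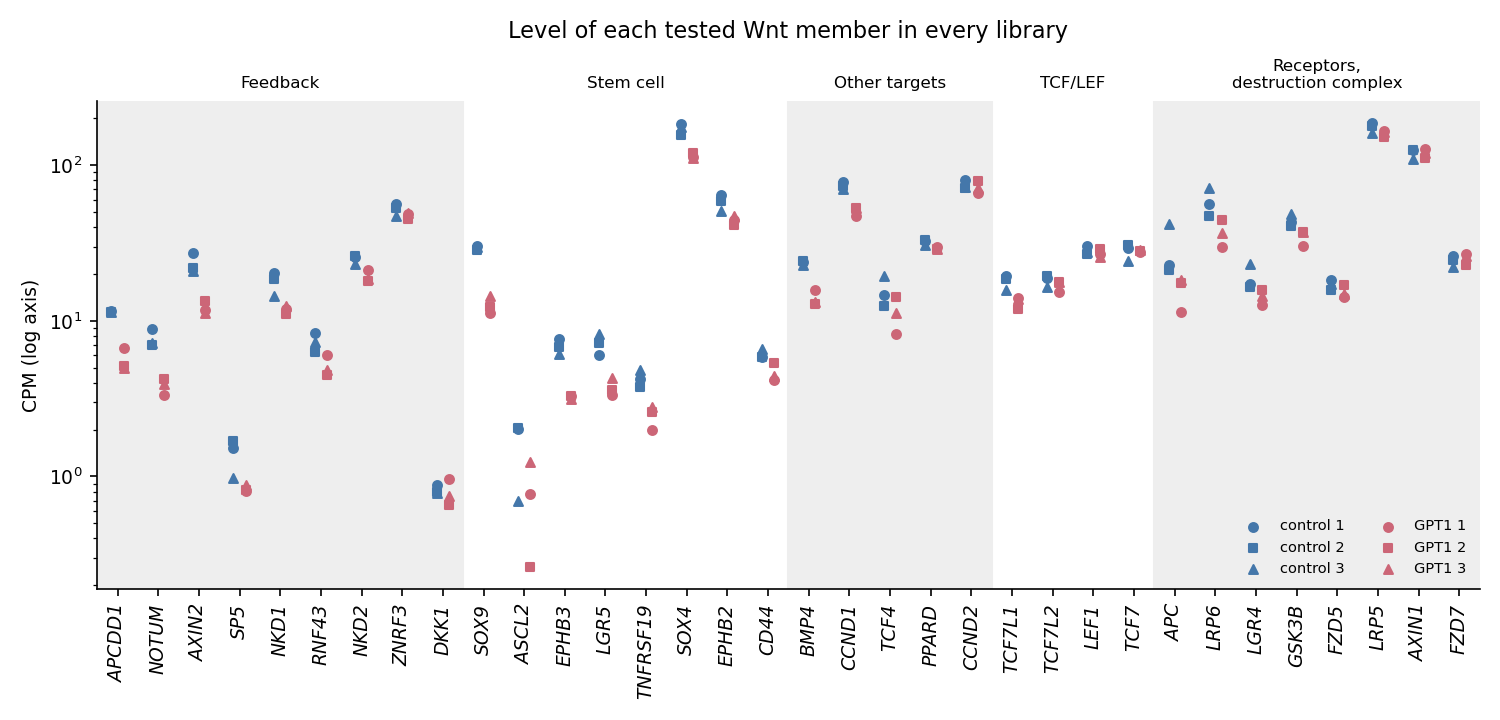
CPM of the 34 tested genes (log axis) in each library, blue for control and red for GPT1, with a symbol for each replicate, grouped by role. SOX9, EPHB3 and APCDD1 have their red points far below the blue ones, whereas TCF7, LEF1 and AXIN1 have overlapping points.

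Of all genes tested, 14.6% fell. By role, 6 of 9 tested feedback genes fell, 6 of 8 stem and crypt genes, 2 of 5 other targets, 1 of 4 TCF/LEF factors, and 2 of 8 receptors and destruction complex genes. The median log2 fold changes were -0.59, -0.86, -0.45, -0.08 and -0.25 in that order. Joined into targets against factors and components, 14 of 22 and 3 of 12 fell. TCF7 and LEF1, which Wnt signals can also induce, are counted with the factors, and neither fell. The contrast depends in part on that placement. The counts by role also depended on single libraries. No factor or component passed without GPT1 replicate 1 or without GPT1 replicate 3 (0 in each, with 10 targets lower in each), and without control replicate 2 the 4 that fell were APC, LRP6, GSK3B and LGR4. Of the feedback genes 3 fell without control replicate 1 and 3 without GPT1 replicate 3. Fewer of all genes were lower too, at 941 of 18025 and 830 of 18081 without GPT1 replicates 1 and 3. Without control replicates 1 and 2 they numbered 1574 of 18070 and 2937 of 18090. Differences between these role groups were not tested.

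**Figure D2:**
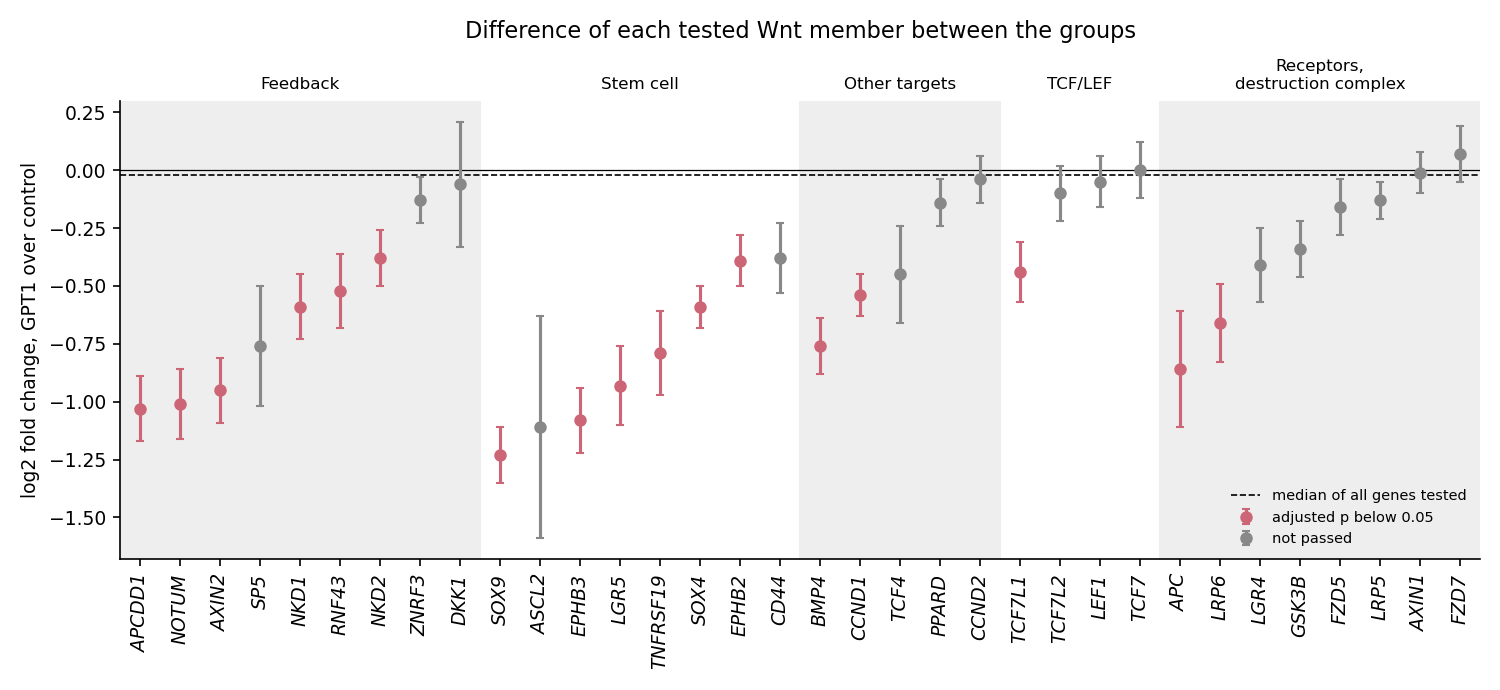
Log2 fold change of GPT1 over control for the 34 tested genes with its standard error, red where the adjusted p was below 0.05. The dashed line is the median of all 17638 genes (-0.02), and the targets on the left reach lower than most factors and components on the right.

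Among the feedback genes, the inhibitors APCDD1, NOTUM and AXIN2 fell to about the same degree. AXIN2 (chromosome 17, 65528563 to 65561647, minus strand, GRCh38), the scaffold of the destruction complex that beta-catenin itself induces, stood at 27.3, 22.0 and 21 CPM in the controls and at 11.7, 13.5 and 11.2 CPM in the GPT1 libraries. The highest GPT1 library was thus well below the lowest control, with a difference of -0.95 ± 0.14 (log2 fold change and SE; adjusted p = 0.00144, edgeR). NOTUM (chromosome 17, 81952507 to 81961840), a secreted enzyme that inactivates Wnt ligands by removing their lipid, had 8.80, 7.02 and 7.21 CPM in the controls and 3.32, 4.20 and 3.92 CPM with GPT1. Its groups did not overlap either (-1.01 ± 0.15, adjusted p = 0.00200, edgeR). APCDD1 (chromosome 18, 10454628 to 10489948), a membrane protein that binds Wnt and LRP5, went from 11.6, 11.4 and 11.4 CPM to 6.66, 5.15 and 4.97 CPM. The controls were nearly identical and GPT1 replicate 1 was the highest of its group (-1.03 ± 0.14, adjusted p = 0.00114, edgeR). These 3 genes stayed below the threshold in each of 17 alternative fits.

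NKD1, NKD2 and RNF43 fell less. NKD1, which antagonises Wnt signals by binding Dishevelled, had 20.2, 18.6 and 14.4 CPM in the controls and 11.9, 11.1 and 12.4 CPM with GPT1 (log2 fold change -0.59, adjusted p = 0.0159, edgeR), and -0.37 after the length and GC correction (adjusted p = 0.029). Its paralog NKD2 had 25.6, 26.2 and 23.3 CPM against 21.3, 18.1 and 18.6 CPM (-0.38, adjusted p = 0.0372, edgeR). RNF43, a ubiquitin ligase that removes Frizzled receptors from the surface, had 8.31, 6.32 and 7.35 CPM against 5.99, 4.52 and 4.81 CPM (-0.52, adjusted p = 0.0375, edgeR). In all 3 genes the groups did not overlap, but RNF43 in control replicate 2 stood close to GPT1 replicate 1. NKD1 lost its call when control replicate 1 (adjusted p = 0.0653), GPT1 replicate 1 (0.0564) or GPT1 replicate 3 (0.0539) was omitted. RNF43 lost it when control replicate 1 (0.144) or GPT1 replicate 2 (0.102) or 3 (0.129) was omitted. NKD2 passed only without control replicate 3 among the fits with 1 library left out; its adjusted p was 0.111 and 0.0841 without control replicates 1 and 2, and 0.060, 0.112 and 0.145 without GPT1 replicates 1, 2 and 3. ZNRF3, the paralog of RNF43 with the same role, had 56.3, 53.0 and 46.9 CPM in the controls and 48.5, 45.2 and 49.2 CPM with GPT1. Its groups overlapped (-0.13 ± 0.10, adjusted p = 0.352, edgeR), and per kilobase of the longest transcript its control level of 7.60 CPM exceeded the 1.31 CPM of RNF43.

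The remaining feedback genes had low counts, with 201 for SP5, 144 for DKK1 and 1 for DKK4 over all libraries. SP5, a zinc-finger transcription factor, stood at 1.53, 1.68 and 0.971 CPM in the controls and at 0.805, 0.820 and 0.883 CPM with GPT1. Control replicate 3 was close to the GPT1 libraries, and the gene missed the threshold (log2 fold change -0.76 ± 0.26, adjusted p = 0.0545, edgeR), with an adjusted p of 0.0225 without that library and 0.0201 after the length and GC correction. DKK1, a secreted antagonist of LRP5 and LRP6, had 0.886, 0.794 and 0.786 CPM against 0.966, 0.656 and 0.752 CPM, which overlapped (adjusted p = 0.893, edgeR). Its relative DKK4 had 1 count in GPT1 replicate 1 and 0 in the other libraries; a count of 0 over the controls allows up to 0.035 CPM (3 counts of 85619710, counting error only).

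SP5 and DKK1 are shown with MMP7 by their promoters, because these were the genes in the list with more than 1 match to the core sequence that TCF/LEF factors bind. The word CTTTGNN, in which each N was A or T, was searched on both strands of RefSeq promoters (GRCh38.p14), which run from 250 bases before to 50 bases after a start site. Of the 37 genes, 25 had 43 promoters in the table. Capitals mark the matches below; where a match lies on the opposite strand, the capitals read TTCAAAG. Each sequence runs along its gene's strand, and none of the matches overlapped.
SP5, chr2:170715174-170715274, plus strand: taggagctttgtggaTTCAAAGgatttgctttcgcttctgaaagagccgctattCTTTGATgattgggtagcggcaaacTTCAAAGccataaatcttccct
DKK1, chr10:52314171-52314226, plus strand: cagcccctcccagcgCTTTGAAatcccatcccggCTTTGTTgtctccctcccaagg
MMP7, chr11:102530835-102530956, minus strand: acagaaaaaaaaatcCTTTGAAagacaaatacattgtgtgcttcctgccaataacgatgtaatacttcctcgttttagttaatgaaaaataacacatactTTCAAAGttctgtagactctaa

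The SP5 stretch holds 3 matches, starting 148, 109 and 84 bases before its start site, and 0.179% of the 35116 promoters in the table hold that many. DKK1 and MMP7 hold 2 each, and 1.58% of promoters hold 2 or more. These 3 genes were picked for their number of matches, so these shares do not describe the list. A single match was found in 1 promoter each of TCF7 and TCF7L2. Over the list, 5 of the 25 genes with a promoter held a match, near the 16.4% of all 27305 genes. Of the genes that fell, 10 had a promoter in the table, and 0 of these held a match in any promoter, beside 16.4% of all 27305 genes in the table (13.8% of promoters). A match is a description of letters, and the window leaves out more distant elements, so no factor binding is read from either. None of the 3 genes shown passed the test: SP5 and DKK1 missed the threshold, and MMP7, a matrix metalloproteinase, had 13 counts over all libraries and was not tested.

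In the stem and crypt group, SOX9 fell furthest of the genes that passed. SOX9 (chromosome 17, 72121020 to 72126420, plus strand), a transcription factor of crypt base and progenitor cells, had 30.4, 28.5 and 30 CPM in the controls. In the GPT1 libraries it had 11.3, 12.2 and 14.5 CPM. The spread within each group was small against the gap between them (log2 fold change -1.23 ± 0.12, adjusted p = 0.000175, edgeR). EPHB3 (chromosome 3, 184561784 to 184582409), a receptor tyrosine kinase that helps position cells along the crypt, stood at 7.67, 6.76 and 6.15 CPM against 3.28, 3.31 and 3.14 CPM. The 3 GPT1 values were almost equal (-1.08 ± 0.14, adjusted p = 0.000934, edgeR). LGR5 (chromosome 12, 71439770 to 71586310), the R-spondin receptor that marks intestinal stem cells, had 6.02, 7.21 and 8.28 CPM in the controls and 3.35, 3.57 and 4.28 CPM with GPT1. No GPT1 library reached the lowest control (-0.93 ± 0.17, adjusted p = 0.00447, edgeR). SOX4 (chromosome 6, 21592768 to 21598619), an HMG-box factor and the most abundant gene of the group by CPM per kilobase (29.4 in the controls), went from 184, 157 and 176 CPM to 113, 119 and 111 CPM. Its groups were also separate (-0.59 ± 0.09, adjusted p = 0.00150, edgeR). SOX9, EPHB3, LGR5 and SOX4 passed in each of the 17 alternative fits. LGR5 overlaps TSPAN8 on the opposite strand, which had 164 counts beside 947 for LGR5, and reads of the shared stretch cannot be told apart.

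TNFRSF19 and EPHB2 fell with less margin. TNFRSF19 (also called TROY), a receptor of the tumour necrosis factor receptor family, had 4.22, 3.78 and 4.86 CPM in the controls and 2, 2.59 and 2.81 CPM with GPT1. GPT1 replicate 1 was the lowest, and without it the gene did not pass (log2 fold change -0.79 with all libraries, adjusted p = 0.0131; -0.66 and 0.055 without it, edgeR). EPHB2, the sister receptor of EPHB3, had 64.3, 59.0 and 50.6 CPM against 44.4, 41.6 and 46.9 CPM. Its groups came close at control replicate 3 and GPT1 replicate 3 (-0.39, adjusted p = 0.0267, edgeR). After the length and GC correction it stood at -0.20 (adjusted p = 0.062). Its call ended when control replicate 1 (0.116) or GPT1 replicate 1, 2 or 3 (0.0892, 0.0801 and 0.0743) was omitted.

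The remaining stem and crypt genes gave no call. CD44, the hyaluronan receptor, had 5.84, 5.84 and 6.57 CPM in the controls and 4.18, 5.38 and 4.45 CPM with GPT1. Although all GPT1 values were lower, it missed the threshold (adjusted p = 0.0810, edgeR), and its log2 fold change was -0.38, or -0.22 after the length and GC correction. ASCL2, a stem cell transcription factor, scattered widely at 2.02, 2.06 and 0.694 CPM against 0.773, 0.262 and 1.24 CPM. Control replicate 3 fell among the GPT1 libraries (-1.11 ± 0.48, adjusted p = 0.108, edgeR), and without it the value was -1.4 (adjusted p = 0.0115). It passed the low-count filter although 1 GPT1 library lay below the cutoff of 0.321 CPM; the other 33 tested genes were above it in every library. SMOC2, a matricellular protein gene of LGR5-expressing cells, had 2 counts in all and was not tested.

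Of the other targets, BMP4 and CCND1 fell. BMP4 (chromosome 14, 53949736 to 53958761), a ligand of the bone morphogenetic protein pathway, stood at 23.8, 24.1 and 22.8 CPM in the controls and at 15.7, 12.9 and 13.2 CPM with GPT1. The groups were separated by more than either varied (log2 fold change -0.76 ± 0.12, adjusted p = 0.00236, edgeR). CCND1 (chromosome 11, 69641087 to 69654474), which encodes cyclin D1 of the early cell cycle, had 78.4, 73.4 and 70.7 CPM against 47.1, 52.9 and 53.1 CPM. It was lower in every GPT1 library (-0.54 ± 0.09, adjusted p = 0.00377, edgeR). Both passed in all 17 alternatives, while LTO1, which overlaps CCND1 on the opposite strand, had 5706 counts beside 11106 for CCND1. The paralog CCND2 overlapped between the groups, with 79.8, 71.2 and 72.2 CPM against 66.1, 78.7 and 71.8 CPM (-0.04 ± 0.10, adjusted p = 0.760, edgeR). PPARD, a nuclear receptor gene, differed little, from 32.8, 33.2 and 30.6 CPM to 29.7, 29.1 and 29 CPM (adjusted p = 0.314, edgeR). The symbol TCF4 here is the E-protein gene on chromosome 18, not TCF7L2, whose protein is often called TCF-4. TCF4 had 14.7, 12.4 and 19.3 CPM in the controls and 8.21, 14.3 and 11.2 CPM with GPT1, with overlap between the groups. Its log2 fold change was -0.45 ± 0.21 (adjusted p = 0.131, edgeR), -0.01 after the length and GC correction, and -0.64 without GPT1 replicate 2 (adjusted p = 0.0433).

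The TCF/LEF factors, through which beta-catenin reaches its targets, differed little apart from TCF7L1. In CPM per kilobase of the longest transcript the control levels were 8.11 for LEF1, 6.06 for TCF7L1, 5.25 for TCF7 and 4.41 for TCF7L2, an order that depends on which transcript is expressed. TCF7L1, which acts mostly as a repressor, had 19.4, 18.7 and 15.9 CPM in the controls and 14.1, 12 and 13.9 CPM with GPT1 (log2 fold change -0.44, adjusted p = 0.0322, edgeR). Control replicate 3 was nearest to the GPT1 libraries. Among the fits with 1 library left out, TCF7L1 passed when that library was omitted. The call ended when control replicate 1 or 2 (adjusted p = 0.118 and 0.0651) or GPT1 replicate 1, 2 or 3 (0.0774, 0.103 and 0.089) was omitted. LEF1 and TCF7, both factors that Wnt signals can induce, overlapped between the groups. LEF1 had 30.3, 26.7 and 27.6 CPM against 26.8, 29 and 25.9 CPM (-0.05 ± 0.11, adjusted p = 0.761, edgeR). TCF7 had 29.5, 30.5 and 24.1 CPM against 27.6, 28.1 and 28.4 CPM (0.00 ± 0.12, adjusted p = 0.997, edgeR). SKP1 overlaps TCF7 on the opposite strand, with 9717 counts beside 5031. TCF7L2, the main TCF of the intestinal epithelium, had 18.9, 19.3 and 16.5 CPM against 15.3, 17.9 and 17.8 CPM, again with overlap (-0.10 ± 0.12, adjusted p = 0.551, edgeR).

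Among the receptors and destruction complex genes, LRP6 and APC fell. APC (chromosome 5, 112707498 to 112846239), the scaffold that most colorectal cancers inactivate, had 23.0, 21.3 and 42.0 CPM in the controls and 11.4, 17.4 and 18.4 CPM with GPT1. Control replicate 3 stood far above the other controls (log2 fold change -0.86 ± 0.25, adjusted p = 0.0320, edgeR), and without it the value was -0.48 (adjusted p = 0.0381). The gene did not pass without GPT1 replicate 1 (0.116) or 3 (0.0618), in DESeq2 (0.0904), or after the length and GC correction (-0.39, adjusted p = 0.0558). LRP6 (chromosome 12, 12116025 to 12267012), a Wnt co-receptor, showed the same high value in control replicate 3, with 56.6, 47.4 and 71.5 CPM against 29.7, 44.6 and 36.7 CPM. It reached -0.66 ± 0.17 (adjusted p = 0.02, edgeR), did not pass without GPT1 replicate 1 (0.0795) or 3 (0.0721), and was at -0.24 after the correction (adjusted p = 0.0266). The longest transcripts of APC and LRP6 measure 10701 and 10020 bases with GC contents of 39.6% and 40.2%. Control replicate 3 was the library whose deviations leaned most towards transcripts low in GC (Spearman -0.52), and long transcripts were relatively lower in each GPT1 library; the part of this in both values was not tested beyond the fits given.

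The remaining components gave no call. GSK3B, the kinase that phosphorylates beta-catenin, had 42.9, 41.0 and 48.8 CPM against 30.4, 37.0 and 37.3 CPM. It missed the threshold by little (log2 fold change -0.34 ± 0.12, adjusted p = 0.0527, edgeR), passed without control replicate 2 (0.0446), and stood at -0.03 after the length and GC correction. LGR4, the broadly expressed R-spondin receptor, had 17.2, 16.4 and 23.3 CPM against 12.6, 15.8 and 14.4 CPM (-0.41 ± 0.16, adjusted p = 0.0766, edgeR; 0.0437 without control replicate 2). After the length and GC correction LGR4 stood at -0.16 (adjusted p = 0.185, edgeR). AXIN1, the standing scaffold of the complex, was level at 126, 125 and 110 CPM against 128, 111 and 119 CPM (-0.01 ± 0.09, adjusted p = 0.944, edgeR). The co-receptor LRP5 had 187, 178 and 162 CPM against 165, 152 and 163 CPM, with overlap (-0.13 ± 0.08, adjusted p = 0.255, edgeR). Per kilobase LRP5 was the more abundant co-receptor in the controls, with 34.0 CPM beside 5.84 CPM for LRP6. The Frizzled receptors FZD5 and FZD7 overlapped between the groups, with log2 fold changes of -0.16 ± 0.12 and 0.07 ± 0.12 (adjusted p = 0.364 and 0.689, edgeR).

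**Figure D3:**
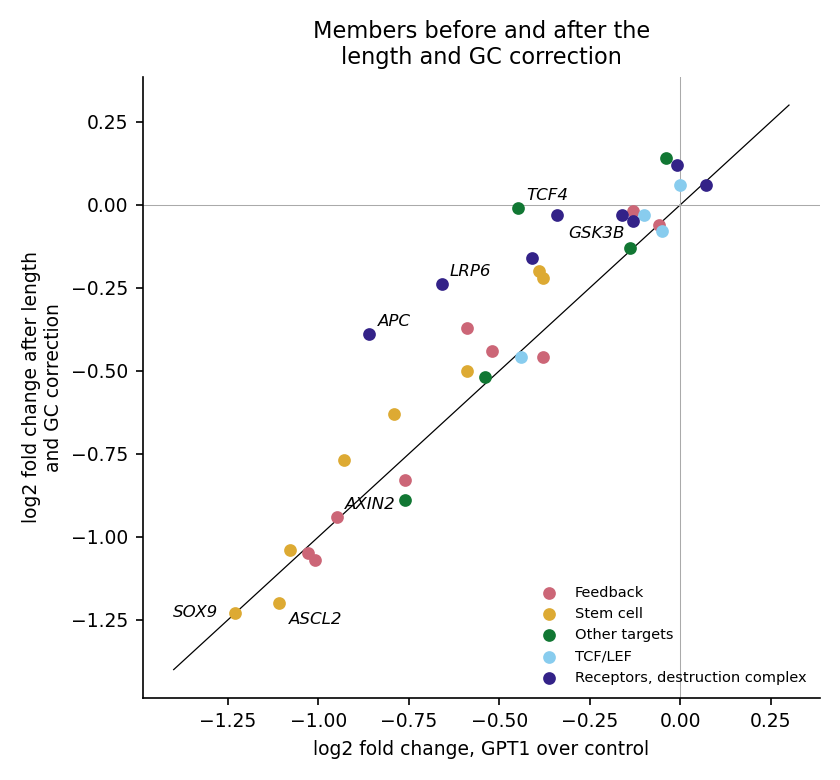
Log2 fold change of each of the 34 tested genes before (x axis) and after (y axis) the length and GC correction, coloured by role; the line marks equal values. SOX9 and AXIN2 lie on the line, and APC, LRP6, GSK3B and TCF4 lie above it.

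In 2 pairs of paralogs, a target could be set against a component of the same family within each library, where the library size cancels. Counts of AXIN2 were 21.7%, 17.7% and 19.2% of those of AXIN1 in the controls and 9.20%, 12.2% and 9.45% in the GPT1 libraries. The log2 ratio was lower in each GPT1 library than in any control, by 0.93 on average (-2.36 ± 0.15 and -3.29 ± 0.22, SD, n = 3 per group; exact two-sided permutation p = 0.1). For LGR5 over LGR4 the shares were 35.1%, 44.0% and 35.7% in the controls and 26.8%, 22.7% and 29.8% in the GPT1 libraries. These groups did not overlap either (-1.39 ± 0.18 and -1.93 ± 0.20, SD, n = 3 per group; exact two-sided permutation p = 0.1). The smallest p that this permutation test can give with 3 against 3 libraries is 0.1, so it cannot place either ratio below 0.05.

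**Figure D4:**
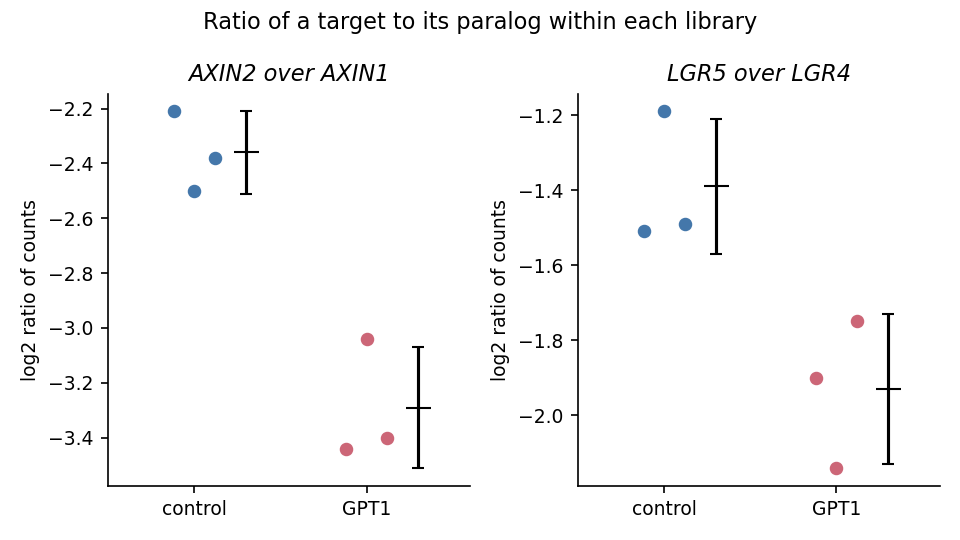
Log2 ratio of counts of AXIN2 over AXIN1 (left) and LGR5 over LGR4 (right) in each library, blue for control and red for GPT1, with the mean and SD of each group in black. All red points lie below all blue points in both panels.

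The rest of the pathway was read from 88 further genes, of which 78 were tested, 8 fell and 4 rose (15.4%, beside 25.1% of all genes). Their median log2 fold change was -0.06. CTNNB1, which encodes beta-catenin, had 427, 444 and 465 CPM in the controls and 482, 485 and 492 CPM with GPT1. All GPT1 libraries were above the controls, and the test was not passed (0.13 ± 0.07, adjusted p = 0.223, edgeR). Of these 12 calls, WNT8B and ROR1 held in each fit with 1 library left out.

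Of 15 tested genes for Wnt ligands and their secretion 4 fell (26.7%, beside 14.6% of all genes). WNT8B was a low-level ligand, with 2.23, 2.13 and 2.59 CPM in the controls and 0.966, 1.05 and 0.719 CPM with GPT1 (log2 fold change -1.33 ± 0.22, adjusted p = 0.00304, edgeR). WNT9B (-1.16, adjusted p = 0.0137) and WNT10B (-0.45, 0.0333), also ligands, and PORCN (-0.35, 0.0379), the acyltransferase that Wnt secretion requires, were the others. WNT9B did not pass without GPT1 replicate 1 or 3 (adjusted p = 0.0585 and 0.0521), and WNT10B lost its call when control replicate 1 (0.112), GPT1 replicate 2 (0.109) or GPT1 replicate 3 (0.1) was omitted. PORCN passed without control replicate 3 but not without control replicates 1 and 2 (0.131 and 0.0748) or GPT1 replicates 1, 2 and 3 (0.104, 0.094 and 0.139).

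Of 15 tested receptor and R-spondin genes, ROR1 and FZD3 fell and FZD9 and RSPO4 rose. That was 13.3% in each direction, beside 14.6% of all genes lower and 10.5% higher. ROR1, a receptor tyrosine kinase for WNT5A, had 14.5, 12.2 and 17.9 CPM against 6.28, 8.69 and 7.23 CPM, with no overlap (log2 fold change -1.01 ± 0.17, adjusted p = 0.00366, edgeR). RSPO4, an R-spondin, was counted 5, 7 and 7 times against 24, 34 and 15 times with GPT1 (1.81 ± 0.44, adjusted p = 0.0163, edgeR). Omitting control replicate 1 (0.0612) or GPT1 replicate 1 (0.0517) ended the call. The Frizzled gene FZD9 rose by 0.45 (adjusted p = 0.0274), a call that ended when control replicate 1 (0.0533), GPT1 replicate 1 (0.110) or GPT1 replicate 3 (0.0859) was omitted. FZD3 was at -0.56 (adjusted p = 0.0490), at -0.37 without control replicate 3 (0.110), and at 0.02 after the length and GC correction (0.91), where no difference was left. Omitting control replicate 1 (0.0760), GPT1 replicate 1 (0.173) or GPT1 replicate 3 (0.113) ended its call too.

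Of 17 tested cytoplasmic genes, TNKS2, a tankyrase that marks AXIN proteins for degradation, fell (log2 fold change -0.59, adjusted p = 0.0265; -0.32 after the length and GC correction) and the kinase gene GSK3A rose (0.46, 0.0128). Of 15 nuclear cofactors, the corepressor gene CTBP2 fell (-0.33, 0.0154; -0.06 after the correction, adjusted p = 0.549) and the histone deacetylase gene HDAC1 rose (0.34, 0.0175). Without GPT1 replicate 1 or 3 these 4 genes did not pass. The adjusted p values were 0.104 and 0.101 for TNKS2, 0.0646 and 0.0581 for GSK3A, 0.0754 and 0.0809 for CTBP2, and 0.0763 and 0.0904 for HDAC1. With all libraries, 5.88% of the cytoplasmic and 6.67% of the nuclear genes passed in each direction. Of all genes, 14.6% were lower and 10.5% higher. Of 8 secreted inhibitors, such as SFRP and DKK3 genes, 0 passed edgeR, DESeq2 or limma voom, and 0 had an unadjusted p under 0.05. Of 8 planar polarity genes 0 passed any of these tools, and 3 had an unadjusted p under 0.05, all lower. The share of all genes at that unadjusted cut was not counted, so nothing is read from these 3.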

How the data were processed

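Messenger RNA of 6 libraries labelled HCT8 was sequenced, 3 per group. Each deposited value is a raw count of reads in an Ensembl gene, made by the authors from reads aligned with HISAT2 2.0 to GRCh38, per the submitters' processing notes. The tool, annotation and strand setting of the counting were not given in the sources used here; reads of overlapping genes therefore cannot be separated. Symbols matched 60463 of 60664 identifiers; coordinates, lengths and GC content are of GENCODE 29.

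Counts were tested in R 4.3.3 with edgeR 4.0.16 (filterByExpr, TMM, quasi-likelihood F test, two-sided, Benjamini-Hochberg over 17638 genes, threshold 0.05). Standard errors were derived from the F statistic. Alternatives were other scalings and filters, GPT left out, DESeq2 1.42.0, limma voom 3.58.1, a threshold of 0.01, a block for the replicate number, omission of each library, and a smooth trend of each library in transcript length and GC content as an offset (mgcv 1.9.3). Replicate pairs differed beyond sampling noise (chi-square per degree of freedom 9.98 to 30.8). Depth limits genes under about 1 CPM.

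Members and lists were chosen with earlier results of these data known. All members could be named; of the other pathway lists, up to 4 genes with the smallest adjusted p among those past the threshold, and CTNNB1.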

Additional observations from a re-analysis of the deposited data

How the results depend on the processing

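Of the 17 genes that fell, 9 passed under all 17 alternatives, 8 lost their call with some library left out and 2 with the length and GC correction, and 5 of the 17 that did not pass did so under some alternative. No alternative gave a higher member. The range with 1 library left out was 10 to 19 for members that were lower, 0 to 0 for members that were higher, 830 to 2937 for all genes lower and 613 to 1970 for all genes higher. For the other pathway genes it was 2 to 11 lower and 0 to 4 higher. An adjusted p of 0.01 left 9 members and 681 of all genes lower and 491 higher, and 2 lower and 0 higher of the other pathway genes. With the length and GC correction, 3506 of all genes and 14 of the other pathway genes were higher, and together with the replicate block 2951 and 12; FZD3 stood at 0.02 in both. With 1 library left out the difference of the log2 ratio lay between -1.06 and -0.85 for AXIN2 over AXIN1 and between -0.63 and -0.43 for LGR5 over LGR4. The cause of these shifts was not tested.

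Deviations of same-numbered libraries from their group means correlated at 0.14, -0.28 and -0.08, which gave no sign of pairing by replicate number. The highest correlation was 0.39, between control replicate 3 and GPT1 replicate 2. Such deviations include the length and GC trends of each library, so this check cannot decide whether libraries shared a culture or batch. With the replicate number as a block, 15 members were lower instead of 17, and 2470 of all genes were lower and 1416 higher.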
